A study of Sus scrofa with 12 samples.

Results

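The genes described here belong to the apoptosis machinery that acts when corpora lutea regress, and were followed in pig ovaries. They are BCL2, BCL2L1, MCL1, BAX, BAK1, BAD, BCL2L11, CASP8 and FAS. They were chosen by name, as the rows of the gene table with exactly these symbols, and all 9 were found among its 29884 genes. The left ovary was taken from each of 6 sows of a commercial herd free of PRRSV and PCV, at day 4 after the fourth delivery, and frozen. Sows with small litter size (SLS, 8.48 ± 0.53 piglets per litter, ovaries ZD2, ZD3 and ZD12) were set against sows with large litter size (LLS, 16.19 ± 0.43 piglets per litter, ovaries ZD5, ZD7 and ZD8), with 3 ovaries in each group, 1 RNA-seq and 1 small RNA library per ovary and no treatment named in the labels for either. The breed of the sows and the stage of their corpora lutea are not given in the sources used here. The RNA was depleted of ribosomal RNA, and levels are given as FPKM, a fragment count divided by transcript length and by the number of mapped fragments.

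The corpus luteum is the gland that forms from the follicle after ovulation and makes progesterone. When it regresses, progesterone output falls first and the luteal cells then die, in large part by apoptosis. In the mitochondrial branch of apoptosis, BAX and BAK1 open the outer mitochondrial membrane, while BCL2, BCL2L1 and MCL1 hold them in check, and BH3-only proteins such as BAD and BCL2L11 (BIM) oppose those guardians. In the receptor branch, the death receptor FAS recruits the initiator caspase CASP8. How the transcripts of these genes stand in ovaries of sows that differ in litter size is the question of the comparison.

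The ovaries were checked for luteal tissue with 7 markers. The summed FPKM of the markers was 9605 in ZD2, 10808 in ZD3, 9167 in ZD12, 12191 in ZD5 and 10859 in ZD7, but 124.1 in ZD8. In ZD8, 6 of the 7 luteal genes were lower than in every other ovary, while the remaining one, PRLR, went the other way, with 1.16 FPKM in ZD8 against 0.167 FPKM or less in the others and listed at 0 in ZD3. The LLS ovary ZD8 also held the highest sums for oocyte markers (124.9 against 6.47 to 22.8 FPKM, with all 7 genes highest), for the 2 theca markers (415 against 9.31 to 74.4 FPKM) and for 5 T cell markers (17.7 against 4.96 to 8.02 FPKM). Endothelial markers summed to 115.4 FPKM in ZD8 against 244 to 371 FPKM, and macrophage markers to 48.8 FPKM, within the 39.99 to 61.7 FPKM of the others, although 3 of the 5 macrophage genes were highest and CD14 was lowest in ZD8. Of the 4 stroma and 4 smooth muscle markers, 2 each were highest in ZD8. There DCN was at 1854 FPKM, PDGFRA at 219.7 FPKM and MYH11 at 190.3 FPKM, against at most 859, 122.8 and 47.1 FPKM elsewhere. The stroma marker COL1A1 was lowest in ZD8 (377 against 650 to 3002 FPKM). In ZD8 the stroma sum was 2456 FPKM, within the 1131 to 3986 FPKM of the others. The smooth muscle sum of ZD8, 668 FPKM, lay within their 224 to 1176 FPKM. Among the markers in 10 cell type lists of 2 to 7 genes each, 5 of 48 did not overlap between the litter size groups. Of the 40 markers that were tested, 4 did not overlap, where 5.12% of all tested genes did not. Among the 5 granulosa genes this was INHA, the inhibin alpha subunit, at 376 to 726 FPKM in SLS and 66.4 to 285 FPKM in LLS, which made up most of their sum (379 to 742 against 92.1 to 294 FPKM), while the other 4 overlapped and FSHR and AMH were highest in ZD8 (10.8 and 12.01 FPKM). The luteal LHCGR was at 27.8 to 70.5 FPKM in SLS and 10.4 to 24.2 FPKM in LLS, the endothelial PECAM1 at 87.7 to 105.0 and 25.4 to 86.0 FPKM, and the epithelial EPCAM at 0.312 to 1.28 and 2.31 to 27.8 FPKM, with KRT18 (0.237 to 6.30 FPKM in SLS, at most 0.151 FPKM in LLS), too low to be tested, the last of the 5. The part of these differences in the comparisons of the 9 genes was not tested. Its mean Spearman correlation with the other ovaries across genes was 0.765, against 0.903 to 0.920 for the others, and its library was the smallest, with 32272803 reads in genes against 51703531 to 60903268. The litter size differences of the 9 genes and of the pathway genes and lists are therefore given with and without ZD8. In whole ovary RNA, fewer cells of a type and less RNA per cell cannot be told apart.

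All 9 genes reached at least 1 FPKM in all 6 ovaries, as did 10969 of the 29884 genes, and the smallest value of a member, FAS in ZD8, rested on 153 reads. In Sscrofa11.1, BCL2 lies on the plus strand at chr1:158337403-158518214 and MCL1 on the plus strand at chr4:98562092-98567014. BCL2L1 (chr17:35366139-35415798) and BAK1 (chr7:29808849-29815345) lie on the minus strand, and BAX (chr6:54222341-54228150) and BAD (chr2:7831192-7842864) on the plus strand. BCL2L11 is at chr3:45156791-45202996 on the minus strand, CASP8 at chr15:104923659-104948470 and FAS at chr14:100927305-100954781, both on the plus strand.

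Sequences with which small RNAs can pair were read from the 3′ UTRs of BCL2, MCL1 and BCL2L11, because these 3 transcripts are textbook targets of the microRNAs whose levels follow further on. Each line gives 30 bases of the Sscrofa11.1 genome on the strand of the gene, 5′ to 3′, with the 7 bases that pair with the seed in capitals.

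BCL2, match to miR-15a, miR-15b and miR-16, chr1:158516965-158516994: atcaaatcctgTGCTGCTatcctgccaaga

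MCL1, match to miR-29b, chr4:98565607-98565636: tagtttaaccaTGGTGCTattattaggctt

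BCL2L11, match to miR-17-5p and miR-20a-5p, chr3:45158975-45159004: ctctgactggaGCACTTTactctgttcctt

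BCL2L11, first match to miR-92a, chr3:45158285-45158314: caaacgtctgtGTGCAATtattgtttcctt

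BCL2L11, second match to miR-92a, chr3:45156865-45156894: ccactttacttGTGCAATactgctgtaaat

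The guardians came first. BCL2, the founding member of the family, was at 2.52, 4.58 and 6.40 FPKM in SLS and at 2.90, 2.94 and 28.7 FPKM in LLS. Here and below the values stand in the order ZD2, ZD3, ZD12 for SLS, then ZD5, ZD7, ZD8 for LLS. ZD8 stood 9.79 times above the median of the other 5 ovaries, while ZD5 and ZD7 lay inside the SLS range. BCL2L1, whose main product is BCL-XL, was at 10.95, 7.46 and 13.7 FPKM in SLS and 9.30, 12.2 and 13.2 FPKM in LLS. It was among the evenest of the 9 genes, with a highest value 1.84 times the lowest and ZD8 inside the range of the others. MCL1, a guardian protein known for its rapid turnover, was at 77.1, 125.6 and 85.5 FPKM in SLS and 120.2, 116.0 and 48.1 FPKM in LLS, so that ZD3, ZD5 and ZD7 were high and ZD8 was lowest.

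The effectors BAX and BAK1 came next. BAX was at 11.04, 8.47 and 12.9 FPKM in SLS and 8.38, 10.5 and 8.63 FPKM in LLS, with a highest value 1.54 times the lowest, the smallest span of the 9. BAK1 was at 13.9, 7.88 and 13.3 FPKM in SLS and 8.21, 12.6 and 6.87 FPKM in LLS. For both genes ZD3, ZD5 and ZD8 were low and ZD2, ZD12 and ZD7 were high, a split that BAD and the kinase gene AKT1 also had. Other genes of the pathway lists below, FADD and VDAC1 among them, had it too. AKT1 was named here after its values were seen, and the split is a description only.

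The BH3-only genes parted in ZD8. BAD, whose protein binds BCL-XL and BCL2 when growth factor signalling is low, was at 18.8, 11.3 and 20.5 FPKM in SLS and 14.8, 19.5 and 9.58 FPKM in LLS, lowest in ZD8. BCL2L11, which encodes BIM and is controlled by FOXO transcription factors, was at 3.32, 4.22 and 5.72 FPKM in SLS and 3.72, 3.52 and 18.1 FPKM in LLS. The value of ZD8 was 4.87 times the median of the other 5 ovaries, and ZD5 and ZD7 again lay inside the SLS range.

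In the receptor branch, FAS was at 2.53, 4.37 and 3.47 FPKM in SLS and 5.06, 4.85 and 1.66 FPKM in LLS. It was the lowest of the 9 by mean level (3.66 FPKM over 6 ovaries), and ZD8 was below all others. CASP8 was at 4.88, 8.77 and 5.48 FPKM in SLS and 6.08, 4.91 and 3.80 FPKM in LLS, highest in ZD3 and lowest in ZD8. The ligand of the receptor, FASLG, did not pass the filter of 1 FPKM in 3 ovaries.

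**Figure D1:**
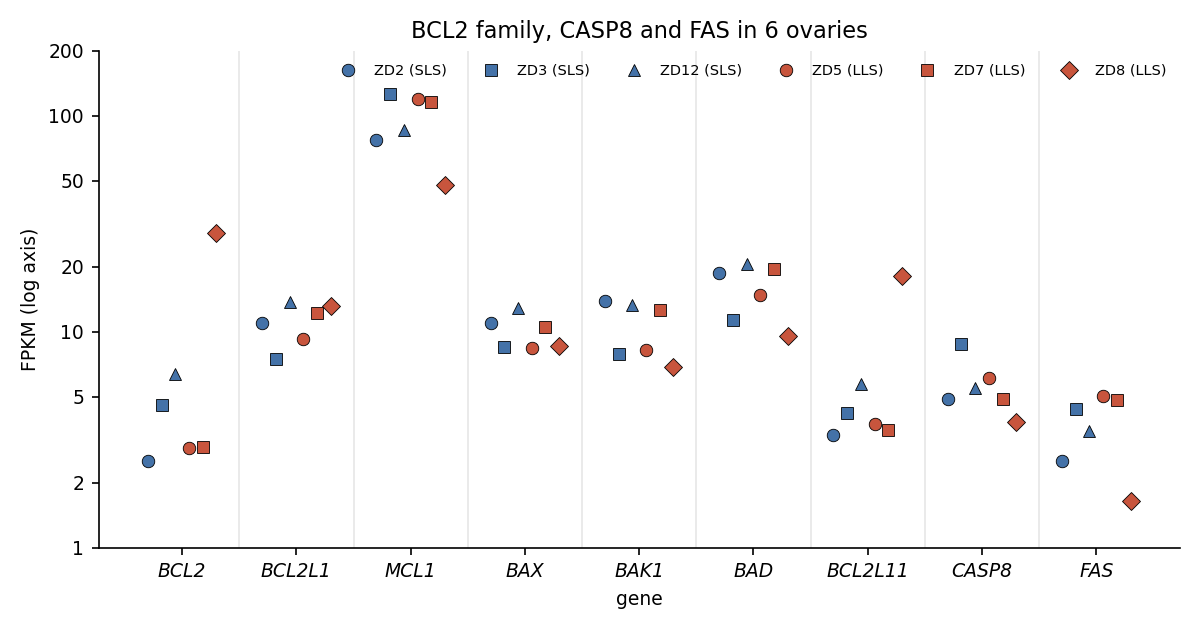
Level of each of the 9 genes in each of the 6 ovaries, as FPKM on a log axis, with SLS ovaries in blue and LLS ovaries in red and 1 mark per ovary. MCL1 lies above the others in every ovary, and ZD8 (diamond) is the highest mark for BCL2 (28.7 FPKM) and BCL2L11 (18.1 FPKM) and the lowest for MCL1, BAK1, BAD, CASP8 and FAS.

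By mean FPKM over the 6 ovaries, the order was MCL1 (95.4), BAD (15.8), BCL2L1 (11.14), BAK1 (10.5), BAX (9.99), BCL2 (8.013), BCL2L11 (6.44), CASP8 (5.65) and FAS (3.66). The lowest MCL1 value, 48.1 FPKM, was above the highest value of any other member, whereas each later gene in this order overlapped with its neighbours across ovaries. MCL1 made up 51.2% to 68.8% of the summed FPKM of the 9 genes in the ovaries other than ZD8, and 34.7% in ZD8. BAD was the next after MCL1 in those 5 ovaries, and BCL2 in ZD8.

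The place of BCL2 in this order depends on the length by which its reads were divided. The deposited FPKM fits a division by the longest annotated transcript, which for BCL2 is a noncoding one of 16876 bases. Its first exon, chr1:158337403-158354206, runs 14880 bases past the first exon of the longest coding transcript (5873 bases), into what is the first intron of the coding form. The table gives 1 value for the gene, so reads from this stretch and from the coding exons are not separated, and the part of unspliced RNA, which ribosomal depletion keeps, was not tested. Per kilobase of the coding transcript instead, the BCL2 level became 7.25, 13.2 and 18.4 in SLS and 8.34, 8.44 and 82.6 in LLS, on the FPKM scale. All reads of the gene were kept, so these values can overstate the level of the coding exons. The coding length was chosen after seeing the data. With it BCL2 ranked first in ZD8, with 42.8% of the sum of the 9 against 24.9% for MCL1. In the other ovaries BCL2 was between rank 2 and rank 6. The length cancels in a ratio of FPKM between ovaries, though not wholly on the log2(FPKM + 1) scale. Of 11817 tested coding genes, 1.46% had a longest transcript over 1.5 times their longest coding one, and for the other 8 members the lengths were equal or, for BCL2L11, differed by 1.02 times.

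None of the 9 genes passed the test between LLS and SLS. In limma with Benjamini-Hochberg adjustment, 0 of the 9 passed an adjusted p of 0.05 with a change over 1 on the log2(FPKM + 1) scale, where 0 of the 12260 tested genes did (0%). At an unadjusted p under 0.05 there were 0 of the 9 and 216 of all genes, and without ZD8 0 of the 9 and 721 of all genes. The fold changes that follow are on the log2(FPKM + 1) scale, which understates the change of low genes. By edgeR on the reads recovered from the FPKM, 0 of all genes were called, and by DESeq2 22 genes, none of them among the 9. With 3 ovaries against 3, an exact permutation test cannot go below p = 0.1.

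BCL2 was at 4.50 ± 1.94 FPKM in SLS and 11.5 ± 14.9 FPKM in LLS (SD, n = 3). By limma the log2 fold change was 0.55 (95% interval -1.18 to 2.28, standard error 0.75, adjusted p = 0.999), and without ZD8 it was -0.42 (95% interval -1.16 to 0.31), so that its sign rested on that ovary. On the recovered reads BCL2 was at 1.24 by edgeR and 1.22 by DESeq2, and BCL2L11 at 0.85 and 0.83, with neither gene called. BCL2L1 was at 10.7 ± 3.15 FPKM in SLS and 11.6 ± 2.02 FPKM in LLS, with a log2 fold change of 0.12 (95% interval -0.57 to 0.81), and 0.03 without ZD8. MCL1 was at 96.1 ± 25.9 and 94.7 ± 40.5 FPKM, with a log2 fold change of -0.10 (95% interval -1.08 to 0.88). Without ZD8 the MCL1 value turned to 0.33 (95% interval -0.30 to 0.95). For none of the 3 guardians did the interval leave out 0.

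BAX was at 10.8 ± 2.22 FPKM in SLS and 9.19 ± 1.19 FPKM in LLS, a log2 fold change of -0.20 (95% interval -0.82 to 0.41). BAK1 was at 11.7 ± 3.32 and 9.23 ± 3.00 FPKM, with -0.31 (95% interval -1.07 to 0.45). Both effector genes kept a negative sign without ZD8, at -0.16 and -0.14. BAD was at 16.9 ± 4.87 and 14.7 ± 4.98 FPKM (log2 fold change -0.20, standard error 0.35), and at 0.05 without ZD8. BCL2L11 was at 4.42 ± 1.21 and 8.45 ± 8.37 FPKM (log2 fold change 0.48, 95% interval -0.79 to 1.74), and at -0.21 without ZD8. The sign of both BH3-only genes thus turned with that ovary.

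CASP8 was at 6.38 ± 2.09 FPKM in SLS and 4.93 ± 1.14 FPKM in LLS (log2 fold change -0.30, 95% interval -1.01 to 0.42), and at -0.15 without ZD8. FAS was at 3.46 ± 0.918 and 3.85 ± 1.91 FPKM (log2 fold change 0.05, 95% interval -0.84 to 0.94). Without ZD8 the FAS value was 0.44 (95% interval -0.16 to 1.04), with ZD5 and ZD7 above all 3 SLS ovaries. The adjusted p by limma was 0.999 for each of the 9 genes, and exact two-sided permutation tests gave p = 0.3 for BAX and BAK1 and 0.5 to 0.9 for the others. Every interval reached at least 0.81 on the log2 scale in the direction of its estimate, so differences of that size lay within the error.

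**Figure D2:**
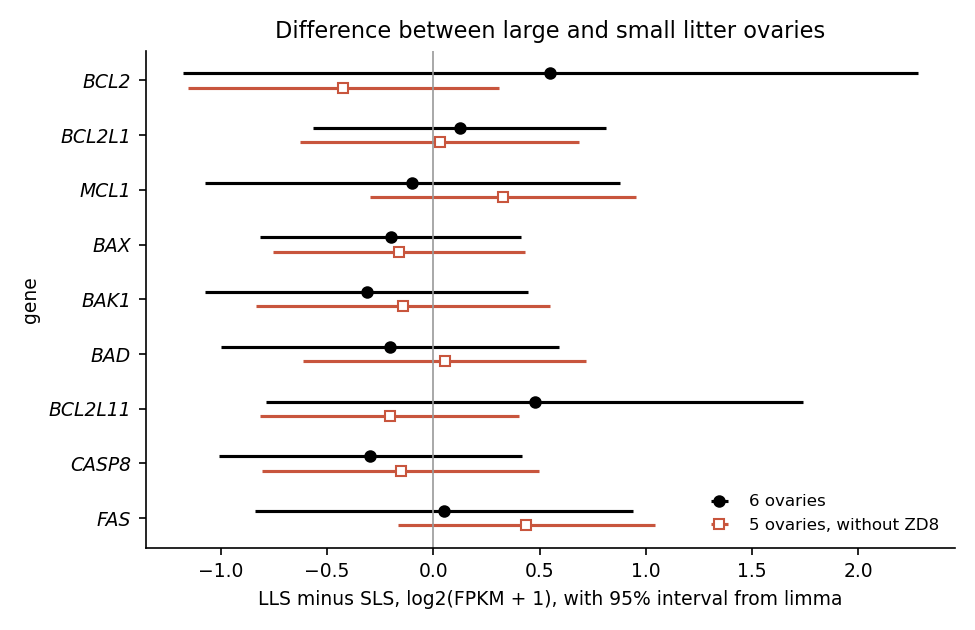
Difference of LLS from SLS for each gene on the log2(FPKM + 1) scale, with bars for the 95% interval from limma, with 6 ovaries (filled) and without ZD8 (open). All intervals include 0, and the values for BCL2, MCL1, BAD and BCL2L11 lie on opposite sides of 0 with and without ZD8.

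The values of SLS and LLS overlapped for all 9 genes, while 5.12% of all tested genes had groups that did not overlap. Without ZD8, 21 of 12260 genes were called by limma (0.171%), 15 of them upward in LLS and 6 downward, and again 0 of the 9 genes. The smallest adjusted p of any gene without ZD8 was 0.0207 by limma, and that of each of the 9 genes was 0.9996 by limma.

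What varied most among the 9 genes was the ovary ZD8. It was above the other 5 ovaries for BCL2 and BCL2L11, 2 of the 9, where 44.6% of all tested genes were highest in ZD8. It was below them for MCL1, BAK1, BAD, CASP8 and FAS, 5 of the 9, where 26.3% of all tested genes were lowest in ZD8. BCL2L1 and BAX lay inside. The median of the other 5 ovaries was higher than ZD8 by 2.64 times for FAS, 2.41 times for MCL1, 1.96 times for BAD, 1.84 times for BAK1 and 1.44 times for CASP8. Against all tested genes, the rise of BCL2 in ZD8 was far out, since 0.546% of genes were at least as high there relative to the others, and 2.47% were at least as high as BCL2L11. The lower values were less so, since 7.88% of genes were at least as low as MCL1, 11.2% as FAS, 13% as BAD, 15.4% as BAK1 and 24.5% as CASP8. ZD8 also stood apart in the sums of the luteal, oocyte, theca, T cell, endothelial and granulosa markers given above. Its low granulosa sum was mostly INHA, whereas FSHR and AMH were highest there. Its stroma and smooth muscle sums lay within the range of the other ovaries, though 2 genes of each list were highest and COL1A1 was lowest there. The part of the tissue make-up in the values of the 9 genes was not tested.

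**Figure D3:**
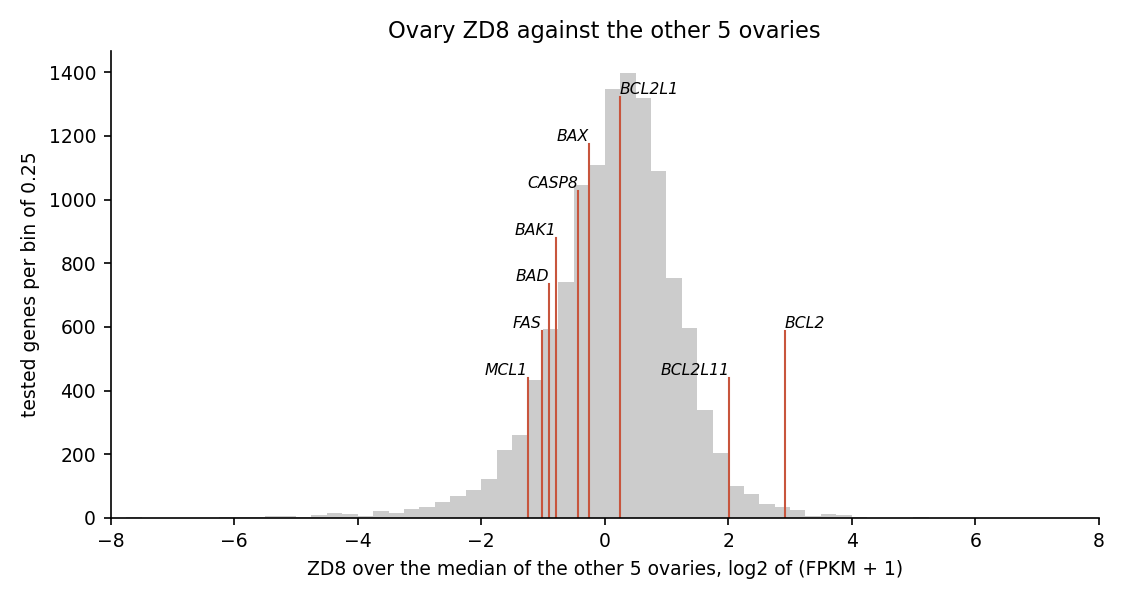
Histogram of the log2 ratio of ZD8 to the median of the other 5 ovaries, in (FPKM + 1), over all tested genes, with a red line at the ratio of each of the 9 genes (line heights only set the labels apart). BCL2 (2.92) and BCL2L11 (2.02) lie in the upper tail, and MCL1 (-1.25) is the farthest to the left of the 9.

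The other ovaries were at an edge for fewer of the 9, as they were for fewer of all tested genes (highest for 7.7% to 14.5% and lowest for 2.96% to 21.7% of them). ZD12 was highest for BCL2L1, BAX and BAD and lowest for none, ZD3 was highest for MCL1 and CASP8 and lowest for BCL2L1, and ZD2 was highest for BAK1 and lowest for BCL2 and BCL2L11. ZD5 was highest for FAS and lowest for BAX, and ZD7 was at neither edge for any. Among the 5 ovaries other than ZD8, the highest value was between 1.54 times (BAX) and 2.54 times (BCL2) the lowest.

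MCL1 and FAS split these 5 ovaries alike, though not in the same order. Both were higher in ZD3 (SLS) and in ZD5 and ZD7 (LLS) than in ZD2 and ZD12, which are both SLS. STAR, the carrier of cholesterol into mitochondria, had the same split, at 4790 FPKM in ZD3, 5418 in ZD5 and 4429 in ZD7 against 2542 in ZD2 and 2722 in ZD12. So had PTGFR, the receptor for the luteolytic prostaglandin F2α, at 138.4, 147.5 and 148.1 against 57.8 and 76.2 FPKM. In ZD8 STAR was at 26.4 FPKM and PTGFR at 17.0 FPKM. STAR and PTGFR were picked out from the 7 luteal markers after their values were seen, and CYP11A1, HSD3B1, SCARB1 and LHCGR did not have this split. CYP11A1, for example, was highest in ZD2 (1863 FPKM) and lowest of the 5 in ZD5 (1470 FPKM). Genes of the pathway lists below, CFLAR, XIAP, BNIP3L and TP53INP1 among them, had the split too, so it was not particular to luteal markers. The likeness is a description only.

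**Figure D4:**
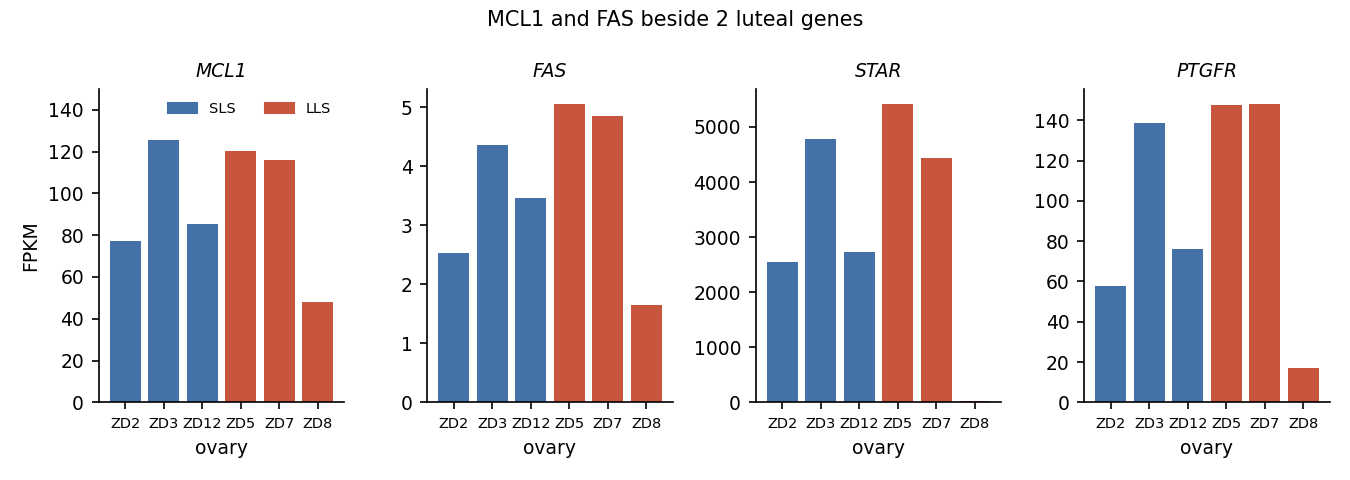
FPKM of MCL1, FAS, STAR and PTGFR in each ovary, with 1 bar per ovary, SLS in blue and LLS in red, on axes that start at 0. All 4 genes are higher in ZD3, ZD5 and ZD7 than in ZD2 and ZD12, and lowest in ZD8.

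Ratios of members within an ovary were then set side by side, as the balance between effectors and guardians is a usual measure of readiness for apoptosis. The ratio of BAX to BCL2 in FPKM was 4.38, 1.85 and 2.01 in SLS and 2.89, 3.59 and 0.3003 in LLS. It was below 1 only in ZD8, and its log2 difference of LLS from SLS, -0.80, became 0.35 without that ovary. With the coding length of BCL2 and all its reads kept, the ratios were 1.52, 0.644 and 0.701 in SLS and 1.01, 1.25 and 0.105 in LLS. Whether BAX exceeded BCL2 thus depended on the length in ZD3 and ZD12.

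The ratio of BAX to BCL2L1 was 1.01, 1.14 and 0.937 in SLS and 0.901, 0.865 and 0.654 in LLS. The groups did not overlap, with a mean log2 ratio of 0.03 ± 0.14 in SLS and -0.32 ± 0.25 in LLS (SD, n = 3). This was the only 1 of the 36 pairs of members whose ratio did not overlap. It was not tested, since the pair was picked from those 36 by its values. No share over all pairs of tested genes is given here, so the count is a description only. Its log2 difference was -0.36 with all ovaries and -0.21 without ZD8, and ZD12 and ZD5 were separated by only 0.937 against 0.901.

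The ratio of BCL2L11 to MCL1, a BH3-only gene over a guardian that its protein binds, was 0.0431, 0.0336 and 0.0669 in SLS and 0.0310, 0.0304 and 0.377 in LLS. That of BCL2L11 to BCL2 varied far less, at 1.32, 0.920 and 0.894 in SLS and 1.28, 1.20 and 0.630 in LLS, since both genes were high in ZD8.

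**Figure D5:**
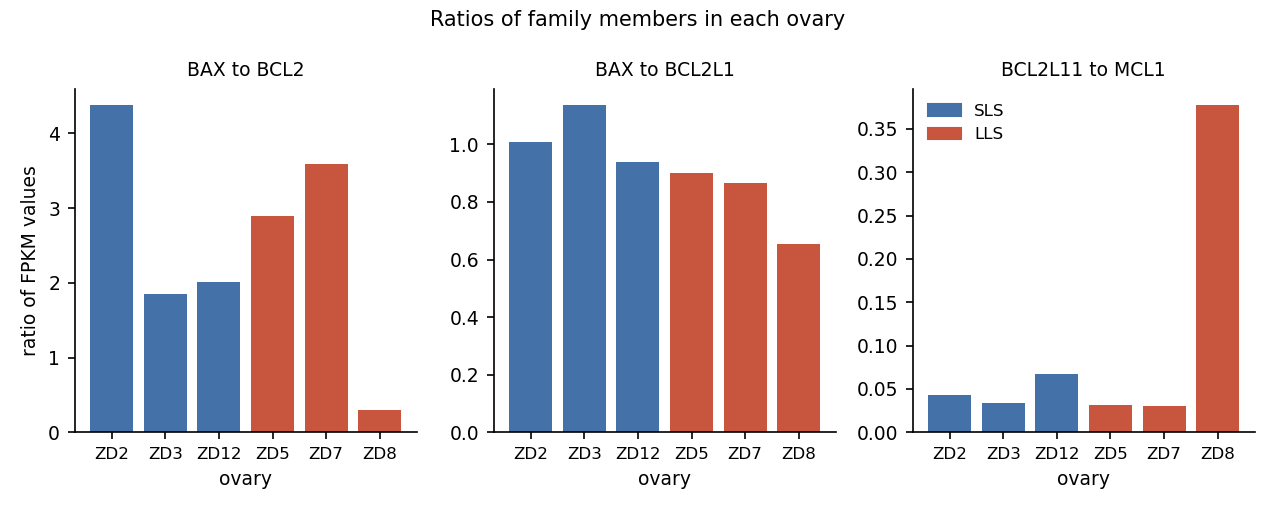
Ratio of FPKM values in each ovary for BAX to BCL2, BAX to BCL2L1 and BCL2L11 to MCL1, with 1 bar per ovary, SLS in blue and LLS in red, on axes that start at 0. ZD8 has the lowest ratio in the first 2 panels (0.3003 and 0.654) and the highest in the third panel (0.377).

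The genes whose levels followed each member most closely were found by Pearson correlation of log2(FPKM + 1) over the 6 ovaries, given with no p as all pairs share libraries and depth. BCL2 was closest to BHLHB9 (r = 0.999 over 6 ovaries and 0.996 over the 5 without ZD8) and LOC110261070 (0.999 and 0.989), and BCL2L11 to CDK13 (0.999 and 0.991) and ZNF483 (0.999 and 0.989). Correlations of at least 0.95 over 6 ovaries were found with 1060 genes for BCL2 and 1138 genes for BCL2L11, but with only 87 to 181 genes for the other 7 members. The closest genes that are given here were PLAA (0.994) for MCL1, NOC2L (0.992) and CUNH9orf142 (0.991) for BCL2L1, TRAPPC5 (0.998) and LOC100158121 (0.996) for BAX, and PPME1 (0.999) and VPS26B (0.997) for BAK1. They were MIEF2 (0.996) and MRPL57 (0.994) for BAD, SLC16A7 (0.995) and KIF21A (0.994) for CASP8, and VCPKMT (0.992) and RNF170 (0.990) for FAS. Over the 5 ovaries without ZD8, these 13 correlations lay between 0.977 and 0.999. No member was among the closest genes of another.

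The rest of the pathway was read from 7 lists with 66 genes, of which 59 were in the table and 50 were tested. None of the 50 was called by limma (0%), higher or lower, and none had an unadjusted p under 0.05. Their median log2 fold change was -0.07, beside -0.10 for the 9 members and 0.02 for all tested genes. Without ZD8 these medians were -0.14, -0.14 and -0.10. Again none of the 50 was called, and 1 had an unadjusted p under 0.05 by limma.

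Among other relatives of BCL2, 2 of the 4 listed were tested, with a median of -0.12 (-0.20 without ZD8). BCL2L12 was between 1.65 and 3.34 FPKM in all ovaries, and BCL2A1, a guardian of leukocytes, between 0.450 and 1.72 FPKM. Of 12 further effector and BH3 genes, 7 were tested, with a median of 0.06 that turned to -0.22 without ZD8. BNIP3L (28.5 FPKM) and BNIP3 (26.5 FPKM), which are best known for the removal of mitochondria, had the highest means over the 6 ovaries. BID, the BH3-only protein that CASP8 cleaves, was at 25.1, 17.0 and 22.2 FPKM in SLS and 13.0, 17.0 and 11.4 FPKM in LLS. The difference by limma was -0.60 on the log2 scale with a standard error of 0.28 (adjusted p = 0.999, exact p = 0.1) and -0.48 without ZD8, and the groups were just apart, with ZD3 and ZD7 at nearly the same level. BMF, a BH3-only gene like BCL2L11, was at 30.6 FPKM in ZD8 and 3.45 to 10.4 FPKM elsewhere, and its log2 fold change of 0.45 became -0.47 without ZD8.

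Of 10 other caspases, 7 were tested, with a median of -0.22 (-0.23 without ZD8). CASP2 had the highest mean, 16.8 FPKM. CASP10, the closest relative of CASP8, was at 7.48, 8.35 and 6.62 FPKM in SLS and 5.40, 6.56 and 4.27 FPKM in LLS. These groups did not overlap, and limma gave a difference of -0.42 on the log2 scale with a standard error of 0.27 (adjusted p = 0.999, exact p = 0.1), and -0.28 without ZD8. CASP6, an executioner caspase, had -0.30 (standard error 0.30), and -0.33 without ZD8.

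Of 13 death receptors, ligands and adaptors, 10 were tested, with a median of 0.00 (-0.09 without ZD8). TNFRSF1A, the main TNF receptor, had the highest mean (62.0 FPKM), and FADD, which joins FAS to CASP8, was at 9.92 to 20.8 FPKM with a log2 fold change of -0.42 (standard error 0.30) and -0.48 without ZD8. CFLAR, whose protein FLIP blocks CASP8 at the receptor, was at 26.5, 35.2 and 21.9 FPKM in SLS and 58.6, 41.9 and 22.8 FPKM in LLS. It was highest in ZD5 and was not called (log2 fold change 0.47, standard error 0.38), nor without ZD8, where the value was 0.83 (adjusted p = 0.520 by limma). FAIM2, an inhibitor of FAS signalling known from neurons, had the largest log2 fold change of the list, 1.24 (standard error 0.89), with 36.1 FPKM in ZD8 against 1.40 to 7.60 FPKM, and 0.25 without ZD8.

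Of 11 genes of mitochondrial release and the apoptosome, 10 were tested, with a median log2 fold change of -0.30, which was -0.10 without ZD8. The list held the highest levels of the pathway, VDAC2 (196 FPKM) and VDAC1 (129 FPKM), which form pores of the outer membrane. ZD8 was below all others for 6 of the 10 and above them for 0, where the shares over all tested genes were 26.3% and 44.6%. CYCS, the cytochrome c that activates the apoptosome, was at 23.2, 46.4 and 35.5 FPKM in SLS and 38.2, 18.3 and 6.78 FPKM in LLS (log2 fold change -0.94, standard error 0.56), and without ZD8 the difference was -0.34. For VDAC1 the log2 fold change of -0.65 (standard error 0.47) became -0.11 without ZD8.

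Of 7 inhibitors of apoptosis, 5 were tested, with a median of -0.13 (-0.33 without ZD8). XIAP, which binds active caspases, was between 20.6 and 65.4 FPKM and BIRC6 between 24.4 and 39.5 FPKM, while BIRC5 (-0.42, standard error 0.28) and the low BIRC7 (-0.79, standard error 0.39), listed at 0 in ZD8, had the smallest p. Without ZD8 these were at -0.45 and -0.40, and BIRC7 moved with the setting, from -0.37 with array weights to -1.86 with a pseudocount of 0.1, and was not called. All 9 upstream genes were tested, with a median of 0.04 that turned to -0.20 without ZD8. TP53INP1 was at 14.3, 24.0 and 21.0 FPKM in SLS and 38.3, 24.3 and 34.4 FPKM in LLS, without overlap (0.69 by limma on the log2 scale, standard error 0.30, adjusted p = 0.999, exact p = 0.1), and 0.63 without ZD8. AKT1, the kinase that phosphorylates BAD, was between 41.5 and 71.1 FPKM with a log2 fold change of -0.36 (standard error 0.29) and -0.30 without ZD8. JUN had the next highest mean, 32.5 FPKM, with 69.2 FPKM in ZD8 against 19.3 to 27.9 FPKM. Thus 3 of the 50 genes (BID, CASP10 and TP53INP1) had groups that did not overlap, where the share over all genes was 5.12%. ZD8 was above the others for 14 of the 50 and below them for another 14, where the shares over all tested genes were 44.6% and 26.3%.

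The 8 microRNAs listed for BCL2, MCL1 and BCL2L11 were measured in small RNA libraries of the same 6 ovaries, as read counts scaled to the library total (RPM). Their mature sequences, as deposited, are given 5′ to 3′ with the seed, bases 2 to 8, in capitals, and fall into 5 seed groups.

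miR-15a: tAGCAGCAcataatggtttgt

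miR-15b: tAGCAGCAcatcatggtttaca

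miR-16: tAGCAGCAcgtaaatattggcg

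miR-34a: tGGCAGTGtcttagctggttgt

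miR-29b: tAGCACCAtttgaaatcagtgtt

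miR-17-5p: cAAAGTGCttacagtgcaggtag

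miR-20a-5p: tAAAGTGCttatagtgcaggta

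miR-92a: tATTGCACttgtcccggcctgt

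The seed match was searched for on the transcript strand of the annotated 3′ UTR of the longest coding transcript, which is 3814 bases in BCL2, 2746 in MCL1 and 4365 in BCL2L11. BCL2 held 1 match to the shared seed of miR-15a, miR-15b and miR-16 (TGCTGCT). Among 3′ UTRs at least as long as that of BCL2, 46.6% held it in their first 3814 bases. For the shares of the other targets, the first 2746 (MCL1) or 4365 (BCL2L11) bases were likewise searched. MCL1 held 1 match to miR-29b (TGGTGCT, 22.7% of 3′ UTRs of at least its length). BCL2L11 held 1 match to miR-17-5p and miR-20a-5p (GCACTTT, 35.2%) and 2 to miR-92a (GTGCAAT, 17%). No matches overlapped. Matches are reported here for 7 of the 8 miRNAs, which says nothing of sites for the remaining one, and a match is only a description of these letters.

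None of the 353 tested miRNAs was called by limma (0%), with 0 at an unadjusted p under 0.05 there and 4 by edgeR, which called 0. miR-15b was at 94.0, 121.6 and 91.2 RPM in SLS and 89.5, 73.9 and 48.1 RPM in LLS. These groups did not overlap, as was the case for 2.83% of the tested miRNAs, and limma gave -0.56 on the log2 scale with a standard error of 0.43 (adjusted p = 0.997). miR-15a, with the same seed, was at 47.4, 47.8 and 28.6 RPM in SLS and 48.3, 35.4 and 17.5 RPM in LLS. miR-16, the most abundant of the 3, was at 940, 989 and 805 RPM in SLS and 1251, 650 and 709 RPM in LLS, with ZD5 highest. miR-34a was at 105, 117 and 82.0 RPM in SLS and 126, 129 and 37.1 RPM in LLS.

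miR-29b, listed for MCL1, was at 200, 271 and 373 RPM in SLS and 314, 179 and 351 RPM in LLS. Its log2 fold change was -0.01 (standard error 0.43). It was highest in ZD12 and lowest in ZD7. For BCL2L11, miR-17-5p was at 406, 509 and 446 RPM in SLS and 452, 367 and 247 RPM in LLS, lowest in ZD8. miR-20a-5p was at 438, 686 and 650 RPM in SLS and 678, 437 and 517 RPM in LLS, and ZD8 lay inside. miR-92a was the most abundant of the 8, at 1785, 3585 and 4903 RPM in SLS and 3894, 2928 and 4503 RPM in LLS, with a log2 fold change of 0.24 (standard error 0.45). No correlation between a miRNA and its target was computed.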

How the data were processed

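Total RNA of 6 left ovaries (1 ovary per sow, 3 SLS and 3 LLS) was sequenced, and the p-values measure the spread between these ovaries only. Per the labels and the study's methods, the authors mapped RNA-seq reads to Sscrofa11.1 with HISAT2 and deposited FPKM per gene. The counting program was not given in the sources used here. For small RNAs, for which the labels name BWA, the deposited unit is RPM (called TPM there), a miRNA's reads over a total of the library that the sources used here do not define.

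Members and lists were chosen with earlier results of these data known. Named were all 9 members, from each list the 2 genes highest in mean FPKM and the 2 with the smallest p, the 2 genes most correlated with each member, and 8 listed miRNAs. STAR, PTGFR, PRLR, FASLG, CYP11A1, INHA, FSHR, AMH and the other markers named are listed genes outside this rule, named after their values were seen.

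Genes with at least 1 FPKM in 3 ovaries were tested by limma 3.58.1 (R 4.3.3, trended variance) on log2(FPKM + 1), and miRNAs likewise on log2(RPM + 1). A gene was called where its Benjamini-Hochberg adjusted p was below 0.05 and it changed by more than 1 on the log2 scale. Whole reads (tolerance 0.001) were recovered from FPKM for 99.7% of 23554 genes with the length of the longest annotated transcript, and for 2618 of 2618 miRNA values, and went into edgeR 4.0.16 and, for genes, DESeq2 1.42.0 as alternatives. Other alternatives were pseudocounts, no filter, scalings, array weights and leaving out each ovary. The scripts were tested on simulated data. 3 reads correspond to 0.0493 to 0.0930 FPKM for a gene of 1 kilobase, for counting error only. Symbols were matched to the annotation for 29862 of 29884 genes. Locations and target sites were read from the RefSeq annotation and genome of Sscrofa11.1, and mature miRNA sequences from the deposited table. Some genes and 1 site that these rules give are not reported here.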

Additional observations from a re-analysis of the deposited data

How the results depend on the processing

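No member and no gene of the pathway lists was called under any of 17 settings, and no miRNA under any of 10, leaving out each ovary included. The number of all genes called, 0, became 13 with array weights (6 higher, 7 lower in LLS), 22 by DESeq2 (12 higher, 10 lower), and 0 to 21 across the fits that left out 1 ovary each, with 21 only without ZD8. Array weights also moved the median of all genes from 0.02 to -0.12, and put 1252 genes at an unadjusted p under 0.05 by limma. They turned BCL2 to -0.41, BCL2L1 to -0.11, BCL2L11 to -0.21, MCL1 to 0.39 and BMF to -0.62. By edgeR and DESeq2, MCL1 was at 0.035 and 0.026, BCL2 at 1.24 and 1.22, BCL2L11 at 0.85 and 0.83 and BMF at 0.97 and 0.95. Leaving out 1 ovary at a time, the log2 fold changes ranged from -0.42 to 1.04 for BCL2, -0.093 to 0.31 for BCL2L1, -0.33 to 0.33 for MCL1, -0.45 to 0.053 for BAD, -0.21 to 0.83 for BCL2L11, -0.16 to 0.44 for FAS, -0.26 to 0.055 for BCL2A1, -0.30 to 0.058 for BCL2L12 and -0.47 to 0.94 for BMF. BAX (-0.35 to -0.07), BAK1 (-0.55 to -0.14) and CASP8 (-0.44 to -0.08) stayed negative. The cause of these changes was not tested. No paired analysis was made, because each sow gave 1 ovary and belonged to 1 litter size group only. The lowest read number behind a member's value was 153, for FAS in ZD8, the smallest gene library.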
